A study of Equus caballus with 13 samples.

Results

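Collagen-modifying and cross-linking genes were followed through RNA synthesis and decay in horse chondrocytes. The set had 10 genes, chosen by name, out of 11056 genes listed for an age comparison and 11249 listed for a sex comparison, and all 10 were in both tables. They were the prolyl hydroxylase subunits P4HA1, P4HA2 and P4HA3, the lysyl hydroxylases PLOD1, PLOD2 and PLOD3, the chaperone SERPINH1, the proteinase BMP1 and the lysyl oxidases LOX and LOXL2. SERPINH1 binds procollagen but has no known enzyme activity, so it is a folding factor among enzymes. The cells came from cartilage of wild-type horses (Equus caballus) and were cultured for 2 days before 4 h with 4-thiouridine (4sU), a uridine analogue that marks newly made RNA. Groups were old female (5 samples), young female (5) and young male (3), all of them labelled with 4sU; ages in years were not stated, and the culture step is shared by every group.

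Collagen is built in the endoplasmic reticulum as single chains that carry many prolines and lysines. Prolyl hydroxylases modify the prolines, which lets the triple helix hold at body temperature, and lysyl hydroxylases modify lysines that later carry sugars or cross-links. SERPINH1, also called HSP47, holds the folded helix on its way to the Golgi, BMP1 cuts off the C-terminal propeptide of procollagen outside the cell, and lysyl oxidases start the covalent cross-links between collagen molecules. In cartilage these steps set how firmly the collagen II network is joined.

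Each table held 1 synthesis rate and 1 half-life per gene and group, estimated by the authors, and no value per sample. No spread between horses accompanies any value below, nothing was tested, and the depth of the samples is unknown. Half-lives were read as hours and synthesis rates as arbitrary units, so synthesis rates are compared between groups of 1 table and not between genes. The implied level is the synthesis rate times the half-life divided by ln 2, the RNA amount that both would hold at steady state. In bulk RNA, fewer cells of a type and less RNA per cell cannot be told apart. The 13 samples had 12 batch labels, and only batch 10 held samples of 2 groups, so batch and group cannot be told apart either. The young female samples are assigned to both tables by the labels, and the 2 listed estimates of a half-life differed for the 10 genes by at most 0.07 on the log2 scale, the largest for PLOD2. Synthesis rates differed by at most 0.12, for P4HA3. Implied levels of the 10 genes were each offset by 0.07, which was also the median offset of all shared genes.

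The RNAs of the 10 genes had a longer median half-life than all genes, as did those of the collagen and chondrocyte marker lists. In young female cells of the age table, the median half-life of the 10 genes was 24.9 h, against 3.64 h for all genes. Of the 10 genes, 6 lay above 24 h, as did 7.38% of all genes. By the young female estimates of the sex table it was 5 of the 10, and 7.60% of all genes. In the same cells the median was 20.6 h for 27 other collagen-processing genes, of which 40.7% lay above 24 h. It was 27.2 h for 10 fibrillar collagen chains (60%) and 33.6 h for 8 chondrocyte markers (50%). For 22 oxygen-sensing genes, described below, it was 3.62 h (9.09%). Among the 10 genes, LOX had the longest half-life, 66.0 h, followed by PLOD3 at 62.2 h, PLOD1 at 35.6 h and P4HA3 at 28.7 h. P4HA2 (25.1 h), PLOD2 (24.6 h) and P4HA1 (23.7 h) lay close together, and BMP1 (19.9 h), LOXL2 (14.2 h) and SERPINH1 (9.92 h) were the shortest. In the sex table, PLOD2 (23.6 h) stood just below P4HA1 (23.7 h), so the order of these neighbours is within the difference between estimates. Even SERPINH1 had a longer half-life than 78.3% of the genes in the age table.

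Such half-lives leave little new RNA to measure. With simple exponential decay, a half-life of 66.0 h means that 4.11% of the LOX RNA was new after labelling, and the 9.92 h of SERPINH1 means 24.4%. The listed half-lives stopped at 69.3 h, where 3.92% of the RNA would be new, so a change beyond that point could not be listed. P4HA3 was at this ceiling in old female and young male cells, and LOX was at it in young male cells. Half-lives from 1 to 24 h were taken as measurable with this labelling. By that range, 4 of the genes (P4HA1, LOXL2, SERPINH1 and BMP1) were resolved in both groups of the age table and 2 (SERPINH1 and BMP1) in both groups of the sex table.

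**Figure D1:**
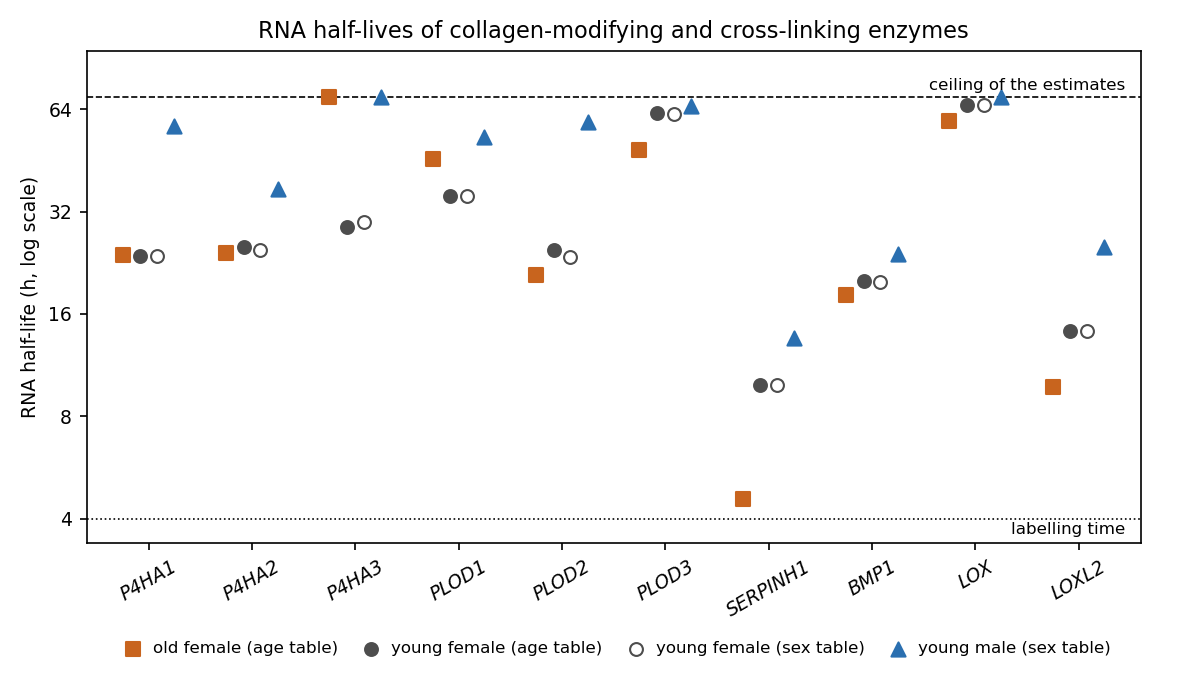
RNA half-life in hours (log scale) of the 10 genes, with 1 symbol for each group value of the authors' tables and no error bars, since no values per sample were given. The 2 young female estimates of each gene nearly coincide, the young male value is the highest or equal highest for every gene, and the old female value of SERPINH1, 4.56 h, is the lowest of all.

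The age comparison asks how RNA kinetics differ between old and young female cells. SERPINH1 stood out by a shorter half-life, and P4HA3 by a lower synthesis rate with a longer half-life, while the other 8 genes had half-lives within a factor of 2 of the young ones. A log2 ratio of at least 1 in size was used as the threshold throughout. For half-life, 2 of the 10 genes were past it (SERPINH1 shorter, P4HA3 longer), against a background of 3.53% of all genes. For synthesis rate it was 1 gene (P4HA3, lower), with a background of 7.52%, and for implied level 0 genes, with a background of 4.12%.

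The prolyl hydroxylase subunits differed from each other with age. P4HA1, the catalytic subunit of the main prolyl hydroxylase of many cells, had a synthesis rate of 897.7 in young and 898.7 in old female cells and half-lives of 23.7 and 23.9 h. Its implied level was 1.01-fold the young one, the least changed of the 10 genes. P4HA2, the alternative catalytic subunit, went from 623.7 to 741.7 in synthesis rate and from 25.1 to 24.1 h in half-life, a level 1.14-fold higher. P4HA3, the third isoform, had a synthesis rate of 42.1 in young and 14.0 in old cells, 3.01-fold lower. Its half-life was 28.7 h in young cells and at the ceiling of 69.3 h in old cells, and its implied level was 1.25-fold lower. Synthesis and half-life of P4HA3 thus lay on opposite sides of the young values, and the level ratio was smaller than either. The 2 parameters are not separate observations. Between both young female estimates they differed by 0.12 and −0.06, at the level offset of 0.07 that all 10 genes had. The lower synthesis rate cannot be read apart from the half-life at the ceiling. P4HA3 also had the lowest implied level of the 10 genes, 1746 in young and 1398 in old cells.

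Among the lysyl hydroxylases, PLOD3 had the age ratio of implied level farthest from 0. PLOD3, which also carries glycosyltransferase activity toward collagen, had a synthesis rate of 278.9 in young and 246.9 in old cells and a half-life of 62.2 and 48.5 h. Both parameters were lower, and the implied level was 1.45-fold lower. PLOD1, which hydroxylates lysines of the helix, had synthesis rates of 1864 and 1692, half-lives of 35.6 and 45.8 h, and a level 1.17-fold higher in old cells. PLOD2, which hydroxylates the telopeptide lysines used for stable cross-links, had synthesis rates of 3391 and 3752, half-lives of 24.6 and 20.8 h, and a level 1.07-fold lower. The log2 ratios of implied level, −0.53, 0.23 and −0.10 for PLOD3, PLOD1 and PLOD2, had no common direction.

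SERPINH1 had the age ratio of implied level farthest from 0 in the set, and the lowest. Its half-life was 9.92 h in young and 4.56 h in old female cells, 2.18-fold shorter, and its synthesis rate was 5109 and 5880, 1.15-fold higher. The implied level was 1.89-fold lower in old cells, a log2 ratio of −0.92 below which 2.43% of all genes lay. In terms of labelling, 24.4% of SERPINH1 RNA would be new after 4 h in young cells and 45.6% in old cells. This difference lies within the range that the labelling resolves. BMP1 had a synthesis rate of 346.2 in young and 295.4 in old cells and half-lives of 19.9 and 18.2 h, a level 1.29-fold lower.

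Of the 5 lysyl oxidases listed, 0 were past the threshold for synthesis rate in old female cells, against 7.52% of all genes in either direction. This count is near that share and is no result about the oxidases. The log2 ratios were 0.69 for LOX and 0.62 for LOXL2, and −0.48, −0.14 and −0.27 for LOXL1, LOXL3 and LOXL4; the differences between them were not tested. LOX, which oxidises lysines of collagen and elastin, had a synthesis rate of 289.5 in young and 467.5 in old cells, 1.61-fold higher. With half-lives of 66.0 and 59.2 h its implied level was 1.45-fold higher, the highest age ratio of the 10 genes. LOXL2, a related oxidase that acts on basement membrane collagen among other substrates, had synthesis rates of 450.9 and 692.9, 1.54-fold higher. Its half-life was shorter, 9.77 against 14.2 h, and its level was 1.05-fold the young one. The log2 ratio of synthesis rate was above that of 91.0% of all genes for LOX and of 89.3% for LOXL2.

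Seen over the set, old female cells showed no common direction. Half-lives were longer for 3 of the 10 genes (36.5% of all genes), synthesis rates higher for 6 (60.2% of all genes) and implied levels higher for 5 (50.7% of all genes). The median log2 ratios of the set were −0.14 (half-life), 0.07 (synthesis rate) and −0.04 (implied level), against −0.08, 0.08 and 0.00 for all genes.

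**Figure D2:**
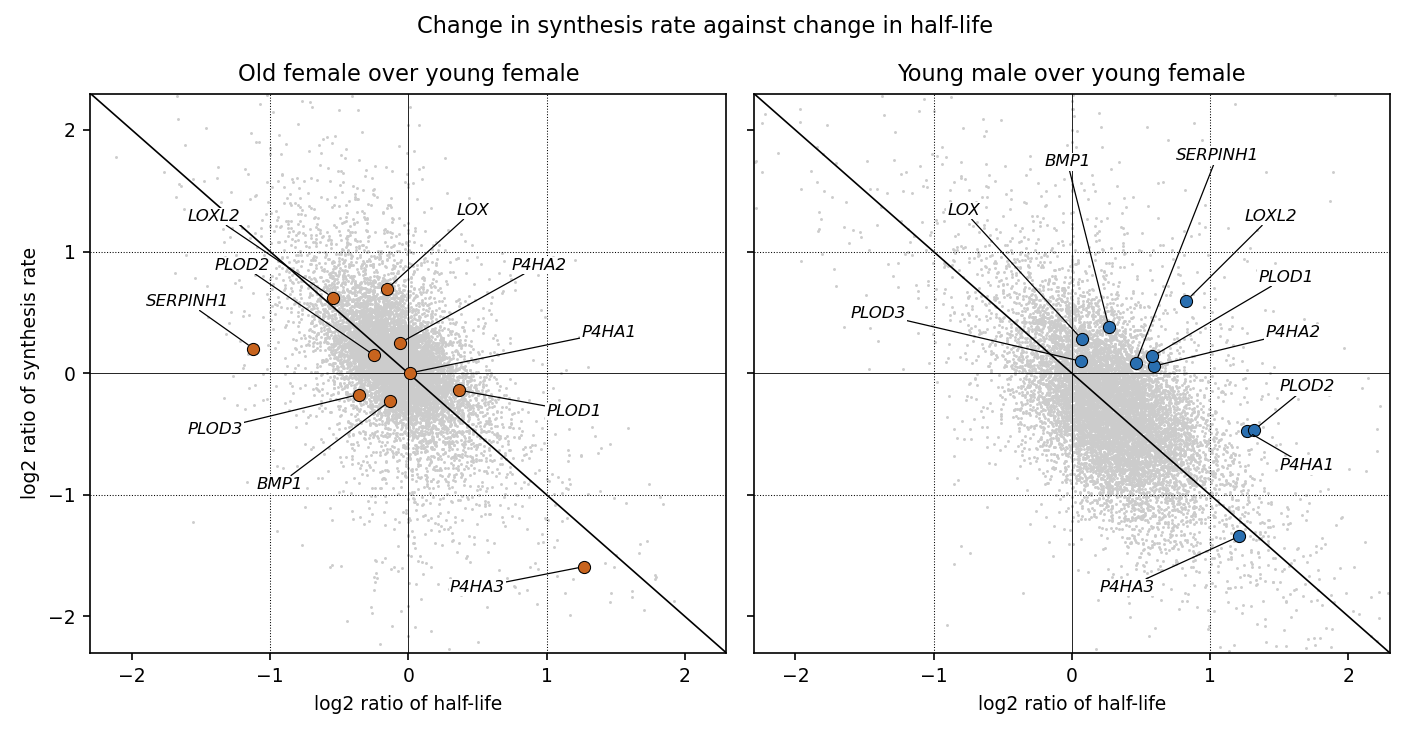
Log2 ratio of half-life (x axis) against log2 ratio of synthesis rate (y axis) for the 10 genes (large points) and all genes within the axes (grey), with old over young female on the left and young male over young female on the right. Dotted lines mark ratios of −1 and 1, and on the diagonal both changes cancel in the implied level; P4HA3 lies near the lower end of the diagonal in both panels, and SERPINH1 with a half-life ratio of −1.12 stands apart on the left.

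The sex comparison asks how young male cells differ from young female cells. All 10 genes had a longer listed half-life in male cells and 9 of the 10 a higher implied level, P4HA3 being the exception. The half-life log2 ratios of PLOD3 and LOX were only 0.07 each. That is about the largest difference between both young female estimates, and the male value of LOX was at the ceiling. Of all genes, 77.3% had a longer half-life and 50.5% a higher level. Of the 777 genes with half-lives over 24 h in old female cells, 82.1% had a longer half-life and 90.7% a higher level, so for level the share of the set is close to that of long-lived RNAs; 5 of the 10 genes are among these 777. LOXL2 had the largest level ratio, 2.69-fold higher, followed by PLOD2 (1.80-fold) and P4HA1 (1.73-fold). Past the threshold for half-life were 3 of the 10 genes (P4HA1, P4HA3 and PLOD2, all longer), with a background of 7.58% of all genes. For synthesis rate it was 1 gene (P4HA3, lower), with a background of 12.2%, and for level 1 gene (LOXL2, higher), with a background of 4.61%.

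Most half-lives in this table were longer in male cells, and the ratio was larger for long-lived RNAs. The median log2 ratio of half-life was 0.27 for all genes, −0.01 in the lowest and 0.51 in the highest decile of genes ordered by their half-life in old female cells, a group that does not enter the ratio. The highest decile held 7 of the 10 genes, all but SERPINH1, LOXL2 and BMP1. Its median log2 ratio of implied level was 0.43. The set had a median half-life ratio of 0.59, and 0.11 after subtracting the median of each gene's own decile, when 7 of 10 genes were above 0 and 0 past the threshold. Its median level ratio was 0.65, and 0.32 after the same subtraction, with 7 of 10 genes above 0. Over the whole series, the subtraction left 5484 of 10974 genes above 0 for half-life, and equally many for level. How many of them passed the threshold for half-life is not given, so the 0 has no background.

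P4HA1 and PLOD2 had nearly the same sex ratios. The half-life of P4HA1 was 23.7 h in female and 57.1 h in male cells, 2.41-fold longer, and its synthesis rate was 858.1 and 615.8, 1.39-fold lower. For PLOD2 the half-lives were 23.6 and 58.7 h, 2.49-fold longer, and the synthesis rates 3388 and 2448, 1.38-fold lower. Both half-life log2 ratios, 1.27 and 1.32, were above those of at least 97.1% of all genes. After centring within deciles of half-life they were 0.76 and 0.81, and the level ratios of 0.79 and 0.85 were 0.36 and 0.42. The male half-lives are beyond 24 h, where 4.74% of P4HA1 RNA and 4.62% of PLOD2 RNA would be new after labelling.

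The other hydroxylases were spread more widely. P4HA2 had half-lives of 24.6 and 37.2 h and synthesis rates of 606.6 and 631.6, a level 1.57-fold higher in male cells. PLOD1 had half-lives of 35.5 and 53.2 h and synthesis rates of 1783 and 1962, a level 1.65-fold higher. PLOD3 had half-lives of 62.1 and 65.1 h and synthesis rates of 266.6 and 285.2, a level 1.12-fold higher. P4HA3 had synthesis rates of 38.6 and 15.2, 2.53-fold lower, and half-lives of 29.9 h and the ceiling of 69.3 h, with a level 1.09-fold lower. As in old cells, its lower synthesis rate cannot be read apart from the half-life at the ceiling. Centred within deciles of half-life, the level ratios of P4HA3 and PLOD3 were −0.56 and −0.26, below the median of their decile, and those of P4HA2 and PLOD1 were 0.23 and 0.29.

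LOXL2 combined a higher synthesis rate with a longer half-life in male cells. Its synthesis rate was 431.3 in female and 651.9 in male cells, 1.51-fold higher, and its half-life was 14.2 and 25.2 h, 1.78-fold longer. Its level log2 ratio of 1.43 was above that of 98.6% of all genes and was 1.24 after centring within deciles of half-life. In this it was the only one of the 10 genes past the threshold for level, with and without that centring. LOX had synthesis rates of 276.6 and 336.0 and half-lives of 66.0 h and the ceiling of 69.3 h, with a level 1.28-fold higher. Its centred level ratio was −0.08, so the direction of LOX was not kept under that centring.

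SERPINH1 and BMP1 were the 2 genes resolved by the labelling in both sexes. SERPINH1 had half-lives of 9.90 and 13.6 h and synthesis rates of 4884 and 5179, a level 1.46-fold higher in male cells. BMP1 had half-lives of 19.9 and 23.98 h and synthesis rates of 330.8 and 429.8, a level 1.57-fold higher. After centring within deciles of half-life their level log2 ratios were 0.52 and 0.35, against 0.55 and 0.65 before. The decile of SERPINH1 here, decile 6, was set by its short old female half-life of 4.56 h. By its young male half-life it was in decile 8. The median level ratios of these deciles in male cells were 0.02 and 0.19, so its centred value depends on that age difference.

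For synthesis rate in male cells, 0 of the 10 genes were past the threshold upward and P4HA3 was past it downward. Of all 11249 genes, 425 were past it upward and 942 downward, so these counts are no result about the set. The log2 ratio was above 0 for 7 of the 10 genes, against 28.9% of all genes. Of these 7, P4HA2 (0.06), SERPINH1 (0.08), PLOD3 (0.10) and PLOD1 (0.14) were no farther from 0 than 0.15. That limit is the 95th percentile of the deviation between both young female half-life estimates. It was set from half-lives and holds no spread between horses, so it cannot tell which synthesis ratios are negligible. The medians were 0.09 for the set and −0.28 for all genes. The 777 long-lived genes had a median of −0.01 and 49.0% of them were above 0. At a lower threshold of 0.5, 6 of the 10 genes had a longer half-life (27.4% of all genes and 49.7% of the long-lived ones) and 7 a higher level (13% and 46.7%). After centring within deciles of half-life, a combination added after the data were seen, 3 genes were past 0.5 upward for half-life (P4HA1, P4HA3 and PLOD2), against 8.57% of all genes. For synthesis rate 2 were past it upward (BMP1 and LOXL2; 16.3% of all genes) and 1 downward (P4HA3; 13.8%). For level 2 were past it upward (LOXL2 and SERPINH1; 8.74% of all genes) and 1 downward (P4HA3; 6.50%). The centred value of SERPINH1, 0.52, is close to 0.5 and rests on the decile set by its short old female half-life.

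**Figure D3:**
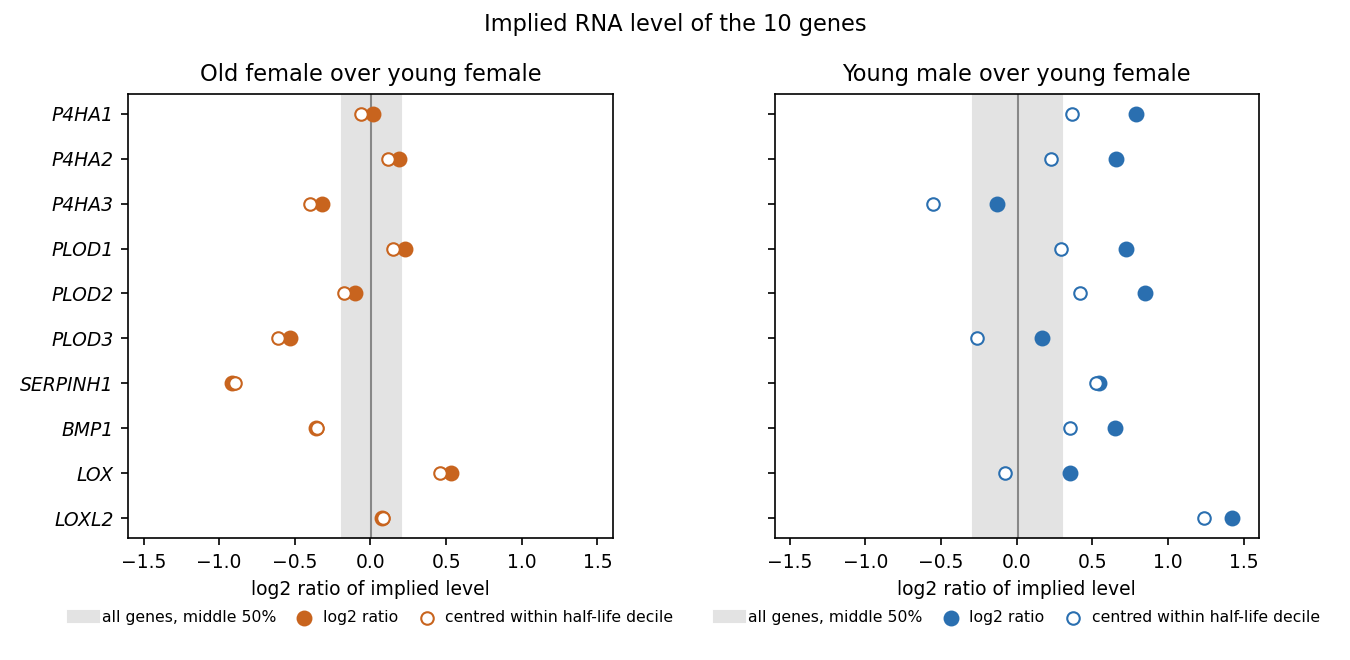
Log2 ratio of implied level for each of the 10 genes, old over young female on the left and young male over young female on the right, as listed (filled) and after subtracting the median of the gene's half-life decile (open). The grey band spans the middle 50% of all genes; in male cells 8 of the 10 filled points lie to the right of the band, and LOXL2 at 1.43 is farthest out.

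Some genes had contrasting values in the age and sex comparisons; both share the young female samples, so they are not independent. SERPINH1 had a level ratio of −0.92 in old female and 0.55 in young male cells, with half-life ratios of −1.12 and 0.46 and synthesis ratios of 0.20 and 0.08. LOXL2 had synthesis ratios of 0.62 and 0.60, but half-life ratios of −0.54 and 0.83, so its levels differed (0.08 and 1.43). P4HA3 had similar values in both, −1.59 and −1.34 for synthesis and 1.27 and 1.21 for half-life, and in each of them its half-life ended at the ceiling. Whether the age and sex ratios of a gene differ could not be tested.

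Other genes of collagen processing were described from a list of 31, which holds the prolyl 3-hydroxylases and their partners, the glycosyltransferases, the propeptide-cutting proteinases and enhancers, and the remaining lysyl oxidases. In male cells 28 were listed; 8 had an implied level past the threshold upward and 0 downward, against 4.61% of all genes past it in either direction, and their median log2 ratio was 0.69, close to the 0.65 of the 10 genes, and 0.27 after centring within deciles of half-life. After that centring, a count added after the data were seen, 4 of the 27 genes with a centred value were past the threshold (CREB3L1, PCOLCE, TLL1 and COLGALT2), against 2.70% of all genes. The largest uncentred ratio was that of ADAMTS2, which removes the N-terminal propeptide, at 7.27-fold; only the sex table lists it, so it has no centred value. The male half-lives of ADAMTS2, PCOLCE and PCOLCE2 were at the ceiling of 69.3 h, as was that of PCOLCE2 in young female cells. CREB3L1, a transcription factor of secretory cells, was 4.70-fold higher, PCOLCE, an enhancer of BMP1, 3.22-fold, and its relative PCOLCE2 2.28-fold. TLL1, a proteinase related to BMP1, was 2.96-fold higher with half-lives of 6.81 and 31.4 h. As a rough guide in arbitrary units, young female implied levels were low for ADAMTS2 (175), CREB3L1 (165) and TLL1 (267), against 115158 for PLOD2. How stable ratios of such low values are was not tested. COLGALT2, a collagen galactosyltransferase, was 2.90-fold and LOXL3, another lysyl oxidase, 2.32-fold higher. P4HB, the partner subunit of the 3 prolyl hydroxylase alpha subunits, was 1.62-fold higher in male cells and 1.31-fold higher in old female cells; it is named here as the binding partner and was chosen after its values were seen.

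In old female cells 27 of the list were found, with 0 past the level threshold upward and 1 downward (4.12% of all genes in either direction), and a median of −0.08. The 1 was ADAMTS14, a relative of ADAMTS2, whose level was 4.10-fold lower with a synthesis log2 ratio of −2.09. Its implied level was low in both groups, 427 in young and 104 in old cells. CREB3L1 had a half-life of 3.06 against 6.23 h in old cells, a ratio of −1.02, with a synthesis ratio of 0.65.

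The substrates of these proteins, the fibrillar collagen chains, had wider ratios than the 10 genes. Of 11 chains, 10 were listed. In male cells all 10 had a higher level (50.5% of all genes), 8 of them past the threshold (4.61% of all genes), with a median log2 ratio of 1.62, and 1.19 after centring, when 7 were past the threshold (2.70% of all genes) and COL3A1 was not. COL1A1 and COL1A2, the chains of collagen I, were 18.3- and 10.5-fold higher, COL5A2 4.46-fold, COL2A1 3.34-fold, COL11A2 3.22-fold, COL5A1 2.92-fold, COL11A1 2.78-fold and COL3A1 2.12-fold. The male half-lives of COL1A2 and COL5A2 were at the ceiling. In old female cells 0 were past the threshold upward and 3 downward (COL1A1 7.25-fold, COL1A2 3.54-fold and COL3A1 2.17-fold lower), against 4.12% of all genes in either direction, with a median of −0.50. Among the 10 genes the level ratios farthest from 0 were 1.43 (LOXL2) in male and −0.92 (SERPINH1) in old cells, against 4.19 and −2.86 for COL1A1.

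Oxygen sensing was described because P4HA1, P4HA2, PLOD2, LOX and LOXL2 are known targets of the HIF transcription factors in many cells. Of 23 genes on that list 22 were found in each table. In male cells their median level log2 ratio was −0.06, with 1 gene past the threshold upward (CA9, a carbonic anhydrase, 2.94-fold) and 0 downward, and in old cells it was 0.01, with 1 upward (EGLN3, a HIF prolyl hydroxylase, 2.20-fold) and 0 downward. These counts are near the all-gene shares of 4.61% in male and 4.12% in old cells and are no result about the list. PFKFB4 had a synthesis ratio of −1.10 in male cells and ANKRD37 a half-life ratio of −1.05 in old cells. The half-life of ADM in young female cells was listed as 0.0740 h in the age table and 0.631 h in the sex table, so its age ratios in half-life and synthesis (2.96 and −2.95) rest on an estimate that differed between tables.

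**Figure D4:**
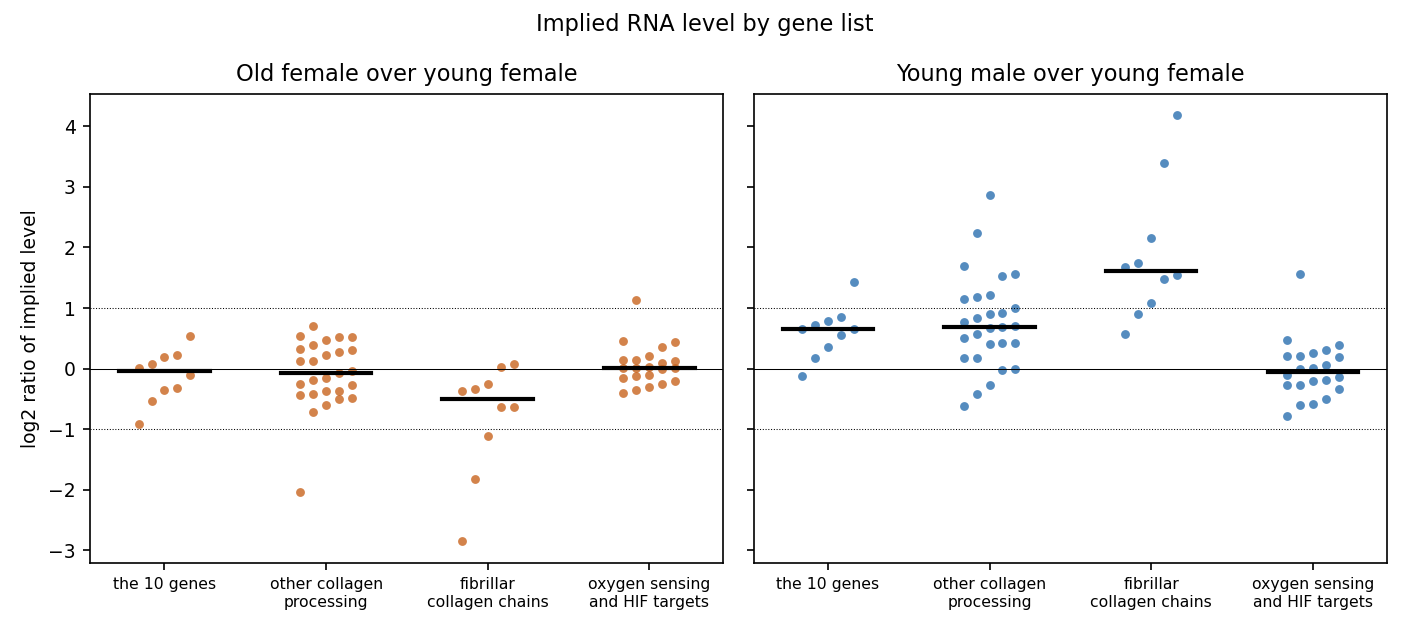
Log2 ratio of implied level for the 10 genes, the other collagen-processing genes, the fibrillar collagen chains and the oxygen-sensing list, with 1 point per gene and a bar at each list's median. Dotted lines mark ratios of −1 and 1; on the right, for young male over young female, the medians are 0.65, 0.69, 1.62 and −0.06 in that order.

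Ratios of cell-type markers varied in size and direction, between lists and within them. All 8 chondrocyte markers checked (COL2A1, ACAN, SOX9, COMP, HAPLN1, MATN3, CHAD and CNMD) were listed in both tables, and their summed implied level was 2.50-fold higher in male and 1.10-fold lower in old female cells. Such a sum weights genes by the arbitrary units of the tables and follows the few with the highest values, so each marker's own ratio is the safer guide. In male cells 7 of the 8 were higher, all but SOX9, with a median log2 ratio of 1.27. Of all genes 50.5% were higher, as were 90.7% of the 777 long-lived genes. In old female cells 4 of the 8 markers had half-lives over 24 h. The count of 7 is near the share of long-lived RNAs. In old cells 3 of the 8 were higher (50.7% of all genes) and 5 lower, with a median of −0.31, from 0.83 for COMP to −1.01 for HAPLN1. Of 5 markers of fibroblasts or synovial lining, 4 were listed, all but PRG4, with a summed level 1.99-fold higher in male and 1.71-fold lower in old cells. In male cells COL1A1, THY1 and COL3A1 were higher (18.3-, 2.63- and 2.12-fold) and PDPN 1.16-fold lower, and in old cells all 4 were lower. Of all genes, 50.5% had a higher level in male and 50.7% in old cells. The mural marker ACTA2, listed in the sex table only, was 28.3-fold higher in male cells, while MYH11 and RGS5 were 1.70- and 1.01-fold lower, and the 3 together summed to a 4.84-fold higher level. Young female implied levels of ACTA2, MYH11 and RGS5 were low, at 117, 274 and 415. In old cells only RGS5 of these was listed, 1.23-fold lower. Of the leukocyte and endothelial markers only CD14 and VWF were listed, 1.11- and 1.03-fold higher in male and both 1.20-fold higher in old cells. The part of these differences in the ratios of the 10 genes was not tested.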

How the data were processed

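The labels assigned 13 samples to old female, young female and young male groups. The deposited tables, 1 for age and 1 for sex, gave a synthesis rate and a half-life per gene and group, with 0 columns of values per sample. Per the submitters' processing notes, the tools were cutadapt 4.5 and STAR 2.5.3 and the build EquCab3.0, with no role or setting given. The kinetic model, gene filter and pooling are not given in the sources used here, nor is the unit of either parameter; hours follow from the 4 h labelling and the ceiling of 69.3, which is ln 2 divided by 0.01. The column headed Young was read as young female, since the labels assign those samples to that table.

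Log2 ratios were taken within 1 table with no pseudocount and no filter, using Python 3.11.15, numpy 2.4.6, pandas 2.3.3 and matplotlib 3.10.9, and the ratio code was tested on simulated data. Without values per sample no test could be run, and no p-value is given. Deciles of half-life were formed over the 10974 genes of both tables by the group outside the ratio. The alternatives were a threshold of 0.5, centring on all genes, centring within deciles, the other table's young female values and half-lives of 1 to 24 h. Members and lists were chosen with earlier results of these data known. Named from the 3 lists were genes past the threshold in any quantity, at most 8 a list, by size of the level ratio. All 10 symbols matched the RefSeq gene table of horse assembly TB-T2T, used for names alone.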

Additional observations from a re-analysis of the deposited data

How the results depend on the processing

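No replicate could be left out and no paired analysis was possible because the tables hold group values. With no replicate spread, a median counted as moved when it shifted by over 0.15 log2 units, the 95th percentile of the deviation between both young female estimates for genes of 1 to 24 h, and a count when it changed by more than 1.5 times. By these limits 18 of 24 alternative medians and 18 of 30 alternative counts stayed within the limits.

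In the age comparison, with half-lives of 1 to 24 h the count for half-life was 1, that for synthesis rate was 0 and the median half-life ratio was −0.34 over 4 genes. No share of all genes is given for that range, so these counts have no background. At a threshold of 0.5 the counts were 3 for synthesis rate (23.0% of all genes, either direction) and 3 for level (15.6%). The small medians of synthesis rate and level changed sign, to −0.01 after centring on all genes and to 0.02 with the other table's young female values.

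In the sex comparison, at a threshold of 0.5 the half-life count was 6 (31.8% of all genes, either direction), the synthesis count 2 (41.1%) and the level count 7 (24.98%). Centring on all genes left 1 gene for half-life (PLOD2), with medians of 0.32 for half-life and 0.37 for synthesis rate. Centring within deciles of half-life left 0 for half-life, with medians of 0.11 for half-life and 0.32 for level. With half-lives of 1 to 24 h, which kept 2 genes, the half-life, synthesis and level counts were each 0, and the median half-life ratio was 0.37. No share of all genes is given for the half-life counts after either centring or for the range of 1 to 24 h. Those counts therefore have no background. The 5 single ratios that lost the threshold were all sex half-lives, P4HA1 (0.995 and 0.76 under the 2 centrings), P4HA3 (0.94 and 0.71) and PLOD2 (0.81 within deciles). Signs of single ratios changed in 5 of 60 values after centring on all genes, in 7 of 60 within deciles and in 0 of 60 with the other young female values; the largest of these ratios had been 0.35 in size. The causes were not tested. For long half-lives, the small share of new RNA after 4 h limits what a ratio can show.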
